A study of Mus musculus with 8 samples.

Results

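The 163 T cell receptor V segment rows of a count table of 55335 genes, 128 named Trav and 35 named Trbv, were taken by symbol alone and described by their share of the counts of their locus in each sample. They were measured by RNA-seq in CD8+ tumor-infiltrating lymphocytes (TILs) from MC38 tumors, a mouse colon carcinoma line implanted under the skin of C57BL/6 mice of 6 to 10 weeks. WT samples came from Lsd1f/f littermates and KO samples from Cd4-Cre+Lsd1f/f mice, so both groups carried the floxed Lsd1 alleles and only the KO mice carried the Cre, which the Cd4 promoter drives in CD4+ T cells as well. LSD1, encoded by Kdm1a, is a histone demethylase. Live CD8+ T cells (TCRβ+CD45.2+) that were also CD44+ and PD-1+, 10000 to 20000 per sample, were sorted on day 18 according to the labels' protocol, while the series' design text gives 14 days. Each of the 4 WT samples (S1 to S4) combined 2 mice and each of the 4 KO samples (S5 to S8) held 1 mouse. A difference between genotypes in the make-up of the receptor pool and a difference between samples of 2 mice and samples of 1 mouse therefore cannot be told apart in these data.

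A β chain gene is made in a developing T cell by joining 1 Trbv segment to a diversity and a joining segment. An α chain gene is made by joining 1 Trav segment to a joining segment. All descendants of a mature T cell keep its joins. The V segment encodes most of the variable domain, including the loops CDR1 and CDR2, and its 3′ end opens CDR3, the loop that lies over the peptide. When a few clones expand in a tissue, the V segments they carry take a larger share of the receptor mRNA there, so V segment shares are a coarse readout of clonal make-up. Cd4-Cre acts at the double-positive stage in the thymus, after the β chain has been joined.

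The libraries held 11657807 to 30295406 counts, with S8 the deepest. The share of all counts that fell on Trav rows was 0.00869% to 0.0154%, or 1030 to 2781 counts per sample. Trbv rows held 2336 to 7075 counts. A count of 0 allowed a share of up to 0.108% to 0.291% of the Trav counts and up to 0.0424% to 0.128% of the Trbv counts, for counting error only. Kdm1a stood at 42.7 to 47.2 CPM (counts scaled to the library's depth) in WT and at 25.2 to 34.8 CPM in KO samples (log2 fold change -0.55 ± 0.14 SE, adjusted p = 0.0163 in edgeR's quasi-likelihood test), counted over all its exons and so including those outside the deleted part. T cell and CD8 markers were high in every sample. The 2 CD8 genes together stood at 1511 to 1770 CPM in WT and, without overlap, at 1280 to 1494 CPM in KO samples, and neither was called (adjusted p = 0.0158 for Cd8b1 and 0.0676 for Cd8a, edgeR's quasi-likelihood test). The sum of 3 CD4 T cell markers was 5.58 to 9.70 CPM in WT and 16.5 to 47.1 CPM in KO samples, and 1 of the 3, Cd40lg, was called higher. The sum of 9 macrophage and monocyte markers was 232 to 641 CPM in WT and 49.3 to 79.3 CPM in KO samples, and 7 of the 9 were called lower. Ighm, the immunoglobulin mu heavy chain gene of B cells, ranged over 45.1 to 80.0 CPM in the WT samples against 14.0 to 41.9 CPM in the KO samples, without overlap, and was lower in KO (log2 fold change -1.50 ± 0.29 SE, adjusted p = 0.00283 by edgeR's quasi-likelihood test). Cd79a, a B cell receptor chain, lay the other way, at 0.0816 to 0.872 CPM in WT and 1.30 to 3.84 CPM in KO samples (adjusted p = 0.0773, edgeR's quasi-likelihood test), and Ms4a1 and Cd79b were at 2.89 CPM or less. The sum of 3 NK cell markers was 0.381 to 1.32 CPM in WT and, without overlap, 2.32 to 6.56 CPM in KO samples. In KO samples most of it was Klrb1c, a receptor gene of NK and NKT cells (log2 fold change 3.12 ± 0.91 SE, adjusted p = 0.0338 in edgeR's quasi-likelihood test, not called, but called by DESeq2). Tumor or stroma markers summed to at most 3.43 CPM in any sample. CD4 T cells carry V segments of their own and macrophages carry none, and the part of any of these cells in the V segment shares was not tested. In such bulk samples fewer cells of a type and less RNA per cell cannot be told apart.

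The 6 Trbv segments that led a sample, and Trbv2, the only segment called between the genotypes, are shown by the last 60 bases of their annotated transcripts (GENCODE M21, GRCm38, chromosome 6). They are the bases next to the join, and capitals mark the last in-frame cysteine codon, at which CDR3 begins. Trbv31 is the only one of the 35 Trbv rows annotated on the minus strand and lies beyond the constant genes, so that it is joined by inversion.
Trbv31, chr6:41557691-41557750, minus strand: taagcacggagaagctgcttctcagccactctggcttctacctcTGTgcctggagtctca
Trbv12-2, chr6:41119305-41119364, plus strand: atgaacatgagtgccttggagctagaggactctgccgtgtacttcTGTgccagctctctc
Trbv29, chr6:41271822-41271881, plus strand: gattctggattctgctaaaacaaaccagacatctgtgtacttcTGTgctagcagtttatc
Trbv17, chr6:41163497-41163556, plus strand: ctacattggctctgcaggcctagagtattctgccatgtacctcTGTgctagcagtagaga
Trbv14, chr6:41135557-41135616, plus strand: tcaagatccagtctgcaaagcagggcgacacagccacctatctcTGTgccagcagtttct
Trbv20, chr6:41188918-41188977, plus strand: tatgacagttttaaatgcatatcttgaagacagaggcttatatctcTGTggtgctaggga
Trbv2, chr6:41047936-41047995, plus strand: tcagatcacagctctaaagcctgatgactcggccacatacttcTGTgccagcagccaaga

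The Trav locus on chromosome 14 (chr14:52427928-53977678, GRCm38) contains copied stretches, and the copies are marked D or N in the segment names. Of 128 Trav rows, 73 carried such a mark and 46 of these 73 stood at 0 in all 8 samples, against 9 of the 55 rows without a mark. The rows were therefore set beside the distinctness of their sequence, as the share of 42-base stretches of each row's transcript found in no other annotated gene, 42 bases being the shorter mate of the read pair (43 and 42 bases in the protocol, whereas the design text gives 75). Among the 108 Trav rows annotated as functional V genes, 36 of the 42 at 0 had no stretch of their own, and the 66 with counts had a median of 50.5% of their stretches unique. Of 48 Trav rows with under 10% of their stretches unique, 45 stood at 0, and the 48 held 0.156% of all Trav counts. Of 35 Trbv rows, 32 were at least 90% unique and held 96.6% of the Trbv counts. The other 3 were Trbv4 and Trbv5, which overlap 5830405F06Rik in the annotation, and the pseudogene Trbv8, which was at 0. Whether reads that matched more than 1 place or more than 1 gene were counted is not given in the sources used here. A 0 in a Trav row without sequence of its own therefore does not show that the segment was unused, and the counts of the near-identical Trav copies are uncertain.

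Trav12-3 was the leading Trav segment of S5 and had 1021 counts over all samples, and its copies Trav12d-3 and Trav12n-3 were at 0 in all samples. The last 60 bases were identical in all 3 rows. Of the 42-base stretches of Trav12-3, 59.4% were unique, against 0% for Trav12d-3 and 0.321% for Trav12n-3. Over the longer stretch compared from the 3′ end, Trav12-3 and Trav12d-3 differed at 11 of 347 bases, while Trav12d-3 and Trav12n-3 did not differ over 347 bases.
Trav12-3, chr14:53622186-53622245, plus strand: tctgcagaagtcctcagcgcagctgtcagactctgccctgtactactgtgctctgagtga
Trav7-6 (882 counts) led S3 and differed from Trav7n-6 (0 counts) at 3 of these 60 bases, given in capitals. Trav7-6 had 50.9% of its 42-base stretches unique. Trav7n-6 had 0%, and 99.7% of its stretches also occurred in the annotated gene C920008G01Rik. The 0 of Trav7n-6 therefore does not show that it was unused.
Trav7-6, chr14:53717232-53717291, plus strand: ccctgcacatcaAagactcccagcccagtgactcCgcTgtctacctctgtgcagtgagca
Trav7n-6, chr14:53325149-53325208, plus strand: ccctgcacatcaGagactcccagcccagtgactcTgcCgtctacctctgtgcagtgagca
Trav16d-dv11 (364 counts) led S4, Trav16n (1221 counts) led S7, and Trav16 had 181 counts, and these 3 rows differed at 2 of the 60 bases, again in capitals.
Trav16d-dv11, chr14:53047762-53047821, plus strand: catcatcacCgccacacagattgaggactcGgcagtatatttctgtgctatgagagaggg
Trav16n, chr14:53351562-53351621, plus strand: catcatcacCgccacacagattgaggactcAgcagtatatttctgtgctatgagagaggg
Trav16, chr14:53743646-53743705, plus strand: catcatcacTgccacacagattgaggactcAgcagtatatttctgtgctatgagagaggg

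**Figure D1:**
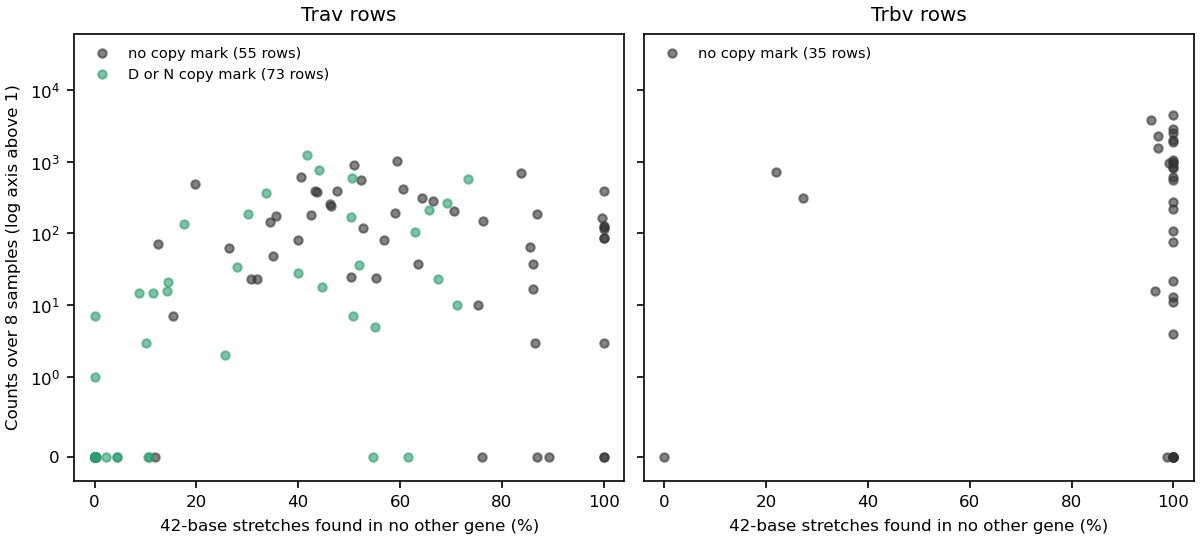
Counts summed over the 8 samples (vertical axis, logarithmic above 1) against the percentage of 42-base stretches found in no other annotated gene (horizontal axis) for each Trav and Trbv row, with rows marked D or N in green and all others in grey. The 45 Trav rows at 0 counts on the left have under 10% of their stretches unique, whereas 32 of the 35 Trbv rows lie at 90% or more.

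Counts were found for 73 Trav rows and 27 Trbv rows. Only 5 Trav rows had counts in all 8 samples, against 17 Trbv rows, and 12 Trav rows and 3 Trbv rows had counts in 1 sample alone. Rows annotated as pseudogenes held 1.55% of Trav and 0.946% of Trbv counts. The pseudogene Trav20 had 87 counts in S1 and none in any other sample. Of the Trav rows with counts, 10 had them only in WT and 5 only in KO samples, and of the Trbv rows 2 only in WT and 4 only in KO samples. A row with counts in 1 sample alone falls to 1 group by definition, and the WT samples combined 2 mice each. The share of such rows over all genes was not computed, so these numbers do not compare the genotypes.

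The question put to the Trbv shares was which β chain segments the tumor-infiltrating cells of each sample used. Trbv31 was the most constant of the leaders and was among the top 3 segments in 7 of the 8 samples. It made up 20.3%, 13.6%, 12.1% and 11.2% of the Trbv counts in S1 to S4, against 24.3%, 5.32%, 15.2% and 17.8% in S5 to S8, so that the KO values lay on both sides of the WT values. No difference in its level was detected between the genotypes (log2 fold change 0.12 ± 0.24 SE, adjusted p = 0.835, edgeR's quasi-likelihood test). Trbv12-2 was among the top 3 in 6 samples, with 12.4%, 21.3%, 11.8% and 11.5% in WT and 7.37%, 11.0%, 2.53% and 14.7% in KO samples, S2 standing far above the other WT samples.

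The other leaders belonged to few samples each. Trbv14 made up 35.7% of the Trbv counts of S6 (1423 of 3984 counts, exact 95% interval 34.2% to 37.2%), the highest share of any segment in any sample, 11.0% in S8 and at most 6.41% elsewhere. Trbv20 was the leader of S7 with 26.7% and reached 18.9% in S6, but was at 0.580% in S8, while the WT samples ranged from 1.39% to 11.2%. Trbv29 led S3 with 14.1% and was the second of S7 with 22%. Trbv17 led S4 with 19.0% and lay between 0.300% and 4.13% in all other samples. Trbv12-1 reached 17.5% in S5 and was at most 2.35% elsewhere, and Trbv13-3 reached 13.6% in S1 and Trbv19 12.7% in S8. In all, 9 Trbv segments made up the top 3 of the 8 samples, and 6 of them led a sample.

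Row by row, the Trav shares had no segment in common at the top, and 8 different segments led the 8 samples. Of the 16 segments that made up the top 3 of any sample, 11 did so in 1 sample. In WT samples the leaders were Trav7n-4 in S1 with 21.1%, Trav1 in S2 with 12.9%, Trav7-6 in S3 with 18.7% and Trav16d-dv11 in S4 with 18.7%. In KO samples they were Trav12-3 in S5 with 28.3%, Trav6-7-dv9 in S6 with 25%, Trav16n in S7 with 29.1% and Trav7-5 in S8 with 11.9%. S5, S6 and S7 thus had leading shares above those of all 4 WT samples, and S8 had the lowest of all 8 samples. Rows were also summed per subgroup, the same number after Trav, which joins distinct segments as well as copies. Trav7 then led S1 (26.0%), S2 (28.3%), S3 (22.4%) and S8 (24.4%). Trav16 led S4 (25.1%) and S7 (30.7%), Trav12 led S5 (31.0%) and Trav6 led S6 (31.5%). By subgroup, S5, S6 and S7 again lay above all WT samples, and S3 was the lowest. The suffix dv marks α segments that can also be joined to the δ chain genes.

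Several segments were high in 1 sample and low elsewhere. Of the leaders, Trav6-7-dv9 was at 0% to 2.09% outside S6, and Trav16d-dv11 at 0% to 1.43% outside S4. Of the segments that ranked second, Trav7-4 made up 16.5% of S5, 0% to 0.142% of the other KO samples and 0.136% to 2.73% of the WT samples, and Trav6-4 made up 19.2% of S7 and 0% to 1.36% of the others. Trav16n was the Trav segment most often among the top 3, in 4 samples, with 5.51%, 2.23%, 8.46% and 5.84% in WT and 1.01%, 20.7%, 29.1% and 7.62% in KO samples. Trav7-6 followed with 3 samples, all WT, in which it held 11.1%, 18.7% and 8.55% (S2 to S4), while S1 had 3.4% and the KO samples 2.48%, 0.583%, 0% and 5.47%.

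**Figure D2:**
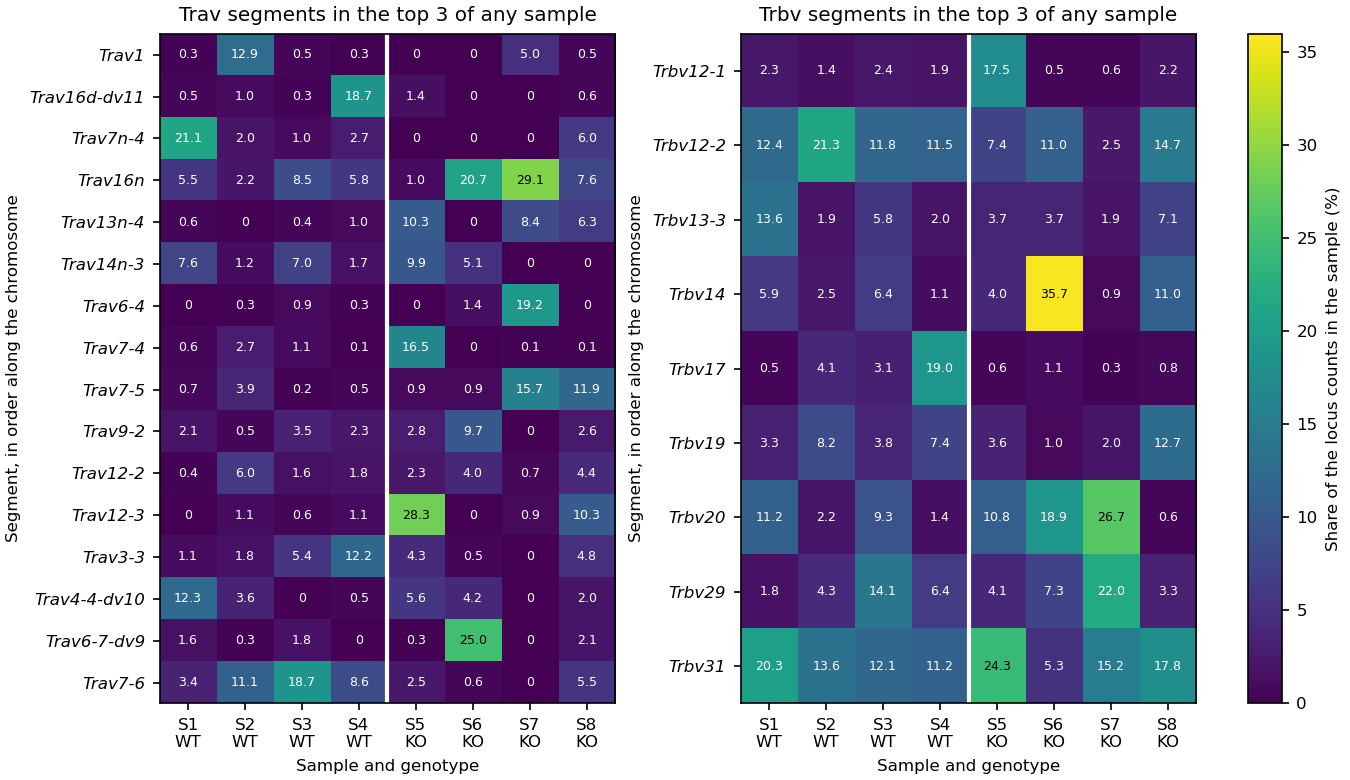
Share of the locus counts in percent (color and number in each cell) of the 16 Trav and 9 Trbv segments that ranked among the top 3 of any sample, by sample (horizontal axis) and in order along the chromosome (vertical axis). Trbv31 and Trbv12-2 recur across samples, whereas most Trav leaders stand out in 1 sample, such as Trav12-3 in S5 with 28.3%.

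The evenness of use was next compared as the effective number of segments, the exponential of the Shannon entropy of the shares, which is the number of equally used segments that would give the same entropy. For Trbv it was 12.2, 14.0, 16 and 13.7 in the WT samples S1 to S4 (14.0 ± 1.57, SD, n = 4), and 11.8, 7.88, 8.68 and 12.2 in the KO samples S5 to S8 (10.1 ± 2.18, SD, n = 4). S5, S6 and S7 lay below all WT samples and S8 just above the lowest. The difference of -3.85 had p = 0.0571 in an exact two-sided permutation test over the 70 arrangements of the 8 samples, the smallest p of which is 0.0286. For Trav the effective number was 22.2, 28.2, 26.7 and 20.8 in WT (24.5 ± 3.54, SD, n = 4) and 11.4, 10.6, 9.29 and 26.6 in KO samples (14.5 ± 8.11, SD, n = 4). Here S5, S6 and S7 were at 11.4 or less and S8 lay within the WT range, and the difference of -10.0 had p = 0.0857 in the same exact test. After Benjamini-Hochberg adjustment over the 8 main permutation tests, both had an adjusted p of 0.229. With rows summed per subgroup, the Trav difference was -2.37 on a scale of 23 subgroups (p = 0.0857, exact permutation test). Without the Trbv rows annotated as pseudogenes (difference -4.05), or without those under 10 counts in all (difference -3.86), the p of the Trbv difference was 0.0286 in the exact permutation test. The only Trbv row with counts but under 10 was Trbv21, with 4 counts, all in S8. The p stayed at 0.0571 in that test with the inverse Simpson index, rows summed per subgroup or counts divided by exon length. The p values of these alternatives were not adjusted.

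The number of segments needed to reach 50% of the Trav counts was 5, 8, 7 and 5 in WT and 3, 3, 3 and 7 in KO samples. For Trbv it was 4, 4, 5 and 4 in WT and 3, 2, 3 and 4 in KO samples. The top 3 Trav segments together held 30.0% to 41.0% in WT samples, and 55.1%, 55.4%, 64.0% and 29.8% in S5 to S8. The mean share of the leading Trav segment was 17.8% ± 3.49 in WT and 23.6% ± 8.0 in KO (SD, n = 4 each), with p = 0.229 in the exact permutation test. For the leading Trbv segment it was 18.7% ± 3.20 in WT and 26.1% ± 7.43 in KO (SD, n = 4 each), with p = 0.114 in the exact permutation test. Without S8 the difference in the leading Trav share was 9.68 in place of 5.77 percentage points, and without S6 the difference in the leading Trbv share was 4.26 in place of 7.46. S8 was the deepest library, and when all samples were thinned to 1030 Trav counts the expected number of Trav segments seen was 41.7 to 49.96 in WT and 28.6, 22, 27.4 and 53.6 in KO samples (difference -14.1, p = 0.143, exact permutation test). Thinned to 2336 Trbv counts, the expected number of Trbv segments seen was 21.0 to 22 in WT and 22, 19.0, 19 and 24.0 in KO samples, so that S5 and S8 were not below the WT range (difference -0.456, p = 0.914, exact permutation test). This measure counts each segment seen once, whatever its share.

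To set samples of equal mouse number side by side, the shares of the KO samples were averaged in all 6 pairs. The averages had 15.3 to 24.6 effective Trav segments, with a mean of 20.1, between the KO mean of 14.5 and the WT mean of 24.5. For Trbv they had 10.1 to 13.7, with a mean of 12.2, against 14.0 in WT. The leading Trav segment of the averages held a mean of 17.7%, against 17.8% in WT, and the leading Trbv segment a mean of 20.6%, against 18.7% in WT. The pairs reuse the same 4 mice, so no test was made. Averaging cannot lower the mean entropy or raise the mean leading share in any set of samples, and it was not done for WT.

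**Figure D3:**
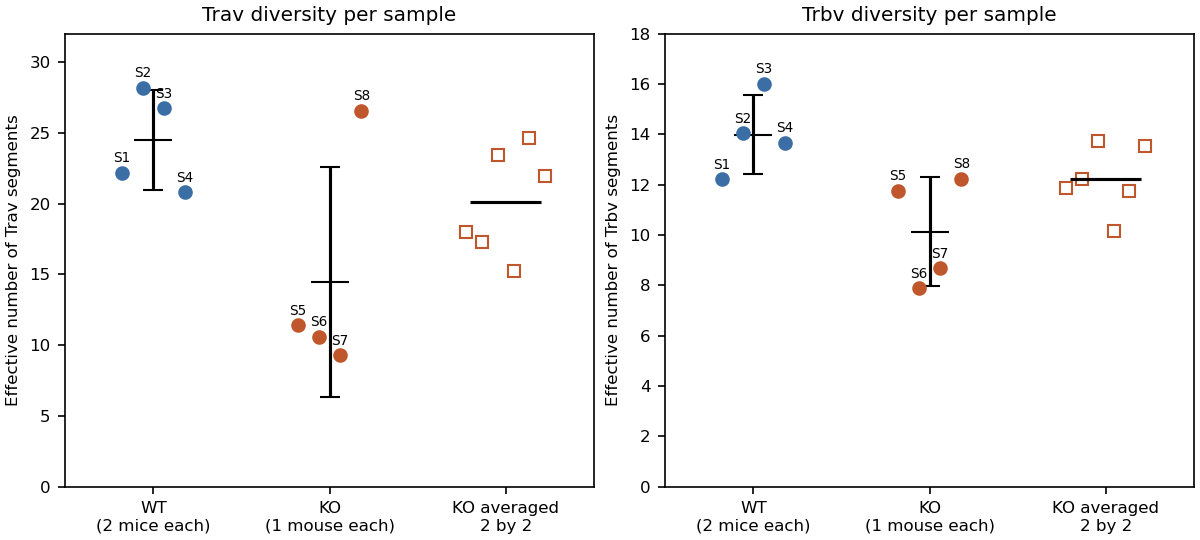
Effective number of Trav (left) and Trbv (right) segments on the vertical axis for each WT sample of 2 mice and each KO sample of 1 mouse (filled points, with mean and SD), and for the 6 averages of 2 KO samples (open squares, with their mean). S5, S6 and S7 lie below all WT samples in both panels, S8 lies at 26.6 for Trav, and the averages have means of 20.1 and 12.2.

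Next, the samples of a group were compared with each other by the Bray-Curtis dissimilarity of their shares, which is 0 for equal shares and 1 for samples with no segment in common. For Trav, the 6 WT pairs had a mean of 0.564 (0.485 to 0.637) and the 6 KO pairs a mean of 0.724 (0.611 to 0.848), and the 16 pairs across groups a mean of 0.705. The KO pairs exceeded the WT pairs by 0.160, with p = 0.143 when the sample labels were permuted in an exact test. For Trbv, the WT pairs had a mean of 0.333 (0.280 to 0.434), the KO pairs 0.514 (0.425 to 0.610) and the pairs across groups 0.442. The difference of 0.180 had p = 0.0571 in the exact permutation test, and 5 of the 6 KO pairs lay above all WT pairs. Between averages of 2 KO samples each, the mean was 0.585 for Trav and 0.401 for Trbv. Such averaging cannot raise this mean in any set of samples, and it was not done for WT.

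**Figure D4:**
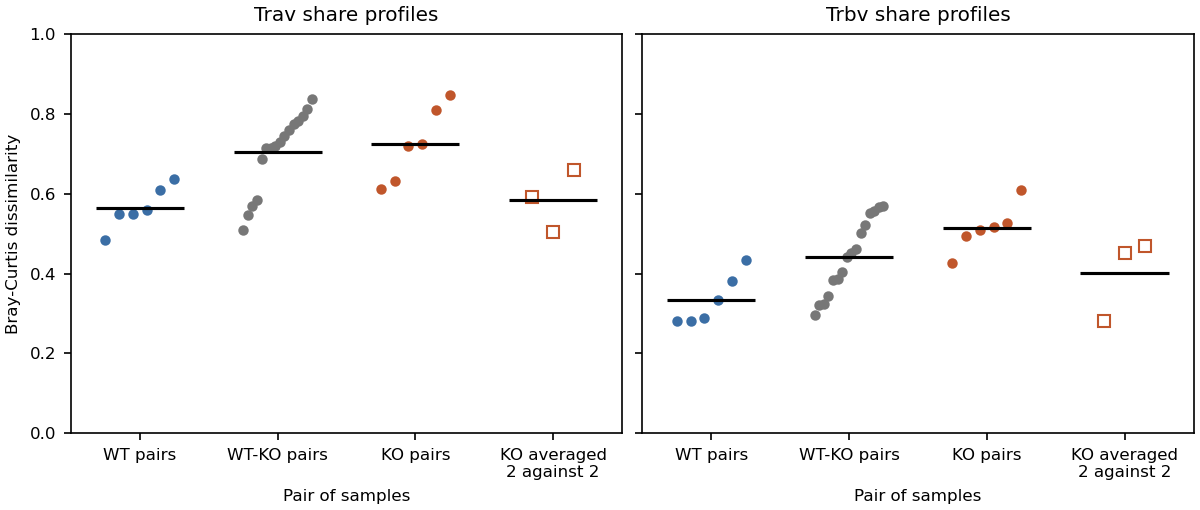
Bray-Curtis dissimilarity of the share profiles (vertical axis) for pairs of WT samples, pairs across genotypes, pairs of KO samples and the 3 splits of the KO samples into averages of 2 (open squares), with the mean of each as a line. KO pairs had the highest mean in both panels (0.724 for Trav and 0.514 for Trbv).

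The summed levels of the loci were close in both groups. Trav rows together stood at 135, 120, 94.5 and 121 CPM in WT and at 156, 83.2, 118 and 97.8 CPM in KO samples, and the groups overlapped. On the log2 scale the mean was 6.87 ± 0.22 in WT and 6.79 ± 0.39 in KO (SD, n = 4 each; p = 0.771, exact permutation test). Trbv rows stood at 191, 247, 215 and 249 CPM in WT and at 187, 322, 195 and 249 CPM in KO samples, with log2 means of 7.81 ± 0.18 and 7.86 ± 0.36 (SD, n = 4 each; p = 0.83, exact permutation test).

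Level differences of single segments were tested by edgeR's quasi-likelihood test over 15378 genes, of which 4.9% passed both limits for a call, a 1.5-fold change and an adjusted p of 0.01. The filter on low counts left 52 segments, 31 Trav and 21 Trbv, and 1 of them was called, Trbv2. By direction, 1.99% of all genes tested were called lower and 2.91% higher in KO. No Trav segment was called, although 9 of the 31 had an unadjusted p under 0.05, and DESeq2 called 1 Trav segment, Trav8d-2. An unadjusted p under 0.05 was found for 15 of the 52 segments, against 24.5% of all genes tested. An adjusted p under 0.05 was found for 5, against 11.3%. All WT samples lay above all KO samples in CPM for 4 of the 52 (Trbv2, Trav8d-2, Trav10 and Trav13-1), against 8.28% of all genes tested, and the reverse was seen for none, against 8.99%.

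The size of the differences and the spread between samples were both large. The median absolute log2 fold change was 0.93 for the 52 segments. It was 0.29 for all genes tested and 0.38 for the 10455 genes within the expression range of the segments. The median biological coefficient of variation was 0.813 for the 52 segments (1.02 for Trav and 0.622 for Trbv), 0.242 for all genes tested and 0.361 for the 10455 genes within the expression range of the segments. Trbv31 had the lowest value of the 52, at 0.244, and Trbv30 the highest, at 1.34.

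Trbv2 stood at 9.76, 10.5, 6.36 and 22.5 CPM in S1 to S4 and at 1.31, 2.75, 2.00 and 5.45 CPM in S5 to S8. All 4 WT samples lay above all KO samples, and Trbv2 fell by 2.06 on the log2 scale (± 0.45 SE, adjusted p = 0.00577, edgeR's quasi-likelihood test). As a share of Trbv counts it ranged in WT from 2.96% to 9.05% and in KO samples from 0.702% to 2.19%, and all its 42-base stretches were unique. The call was lost when S1, S2, S4, S5, S6 or S7 was left out (adjusted p = 0.0101 to 0.0422 in edgeR's quasi-likelihood test). It was kept without S3 or S8.

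The other 4 segments with an adjusted p under 0.05 did not reach the threshold of 0.01. Trav8d-2, a D copy next to Trav16d-dv11, had 79, 97, 14 and 61 counts in WT and 0, 0, 9 and 7 in KO samples, with no overlap (log2 fold change -4.01 ± 0.95 SE, adjusted p = 0.0107, edgeR's quasi-likelihood test). Trbv17 stood at 0.872, 10.2, 6.77 and 47.2 CPM in WT and at 1.05, 3.56, 0.584 and 2.00 CPM in KO samples, so that S1 lay within the KO range and S4 far above all others. Its log2 fold change was -3.16 ± 0.80 SE (adjusted p = 0.0161, edgeR's quasi-likelihood test) and -1.72 without S4, with an adjusted p of 0.179 in the same test.

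Trav13n-4 and Trav12-3 had positive fold changes. Trav13n-4 had 13, 0, 5 and 14 counts in WT and 245, 0, 118 and 174 in KO samples, and S6 was at 0 (log2 fold change 3.82 ± 1.02 SE, adjusted p = 0.0212, edgeR's quasi-likelihood test). Trav12-3 had 0, 25, 7 and 16 counts in WT and 675, 0, 12 and 286 in KO samples, so that 2 of the 4 KO samples lay within the WT range (log2 fold change 4.09 ± 1.17 SE, adjusted p = 0.0312, edgeR's quasi-likelihood test). Without S5 the adjusted p of Trav12-3 was 0.292 in that test.

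**Figure D5:**
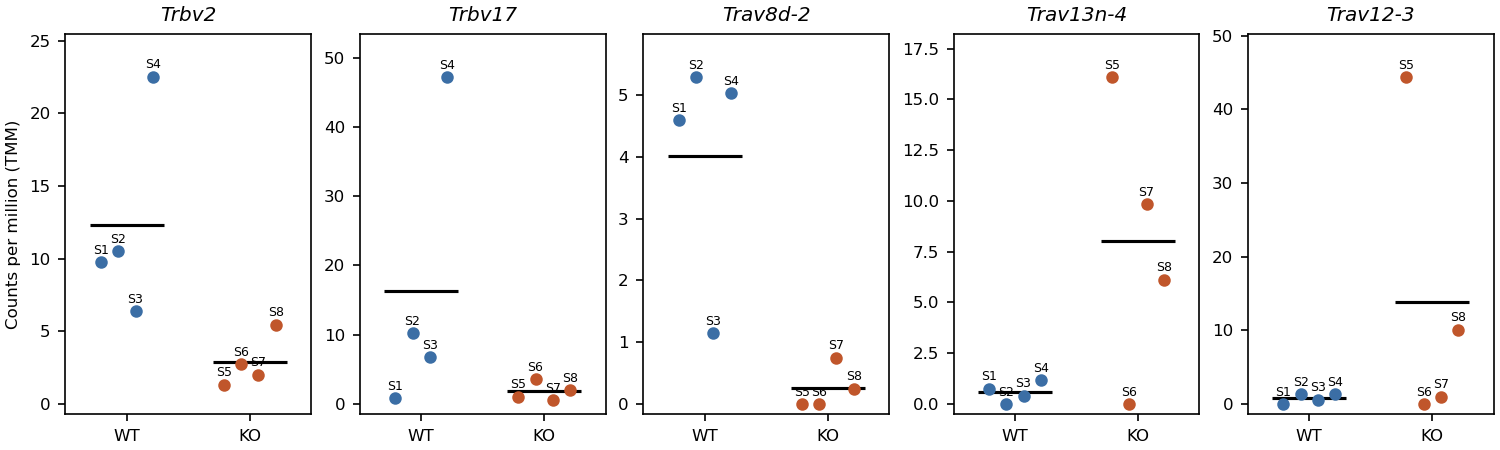
Level in CPM (vertical axis, linear) of the 5 segments with an adjusted p under 0.05 in each WT sample (S1 to S4) and KO sample (S5 to S8), with lines at the group means. The groups do not overlap for Trbv2 and Trav8d-2, whereas S4 sets the WT mean of Trbv17 and S5 the KO mean of Trav12-3.

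Segments of semi-invariant receptors were examined by name. Trav11 and Trav11d, the α segments of invariant NKT cells, stood at 0 in all 8 samples, but neither has a 42-base stretch of its own, so that their use could not be read from these counts. The pseudogene Trav11n had 10 counts in all. Of 2 other genes of such cells, the transcription factor gene Zbtb16 had 27 counts in S1, 18 in S4, 18 in S8 and none in the other 5 samples, whereas Klrb1c, which NK cells carry too, had 0, 2, 5 and 16 counts in WT and 84, 30, 64 and 61 in KO samples, without overlap. Trav1, the α segment of mucosal-associated invariant T (MAIT) cells and the Trav row furthest from the constant gene Trac (1793 kb), had 283 counts in S2, 71 in S7 and 0 to 13 in the other samples, and all its stretches were unique. The gate of the sort held no marker of invariant receptors, and conventional cells use Trav1 too.

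At the ends of the loci, Trav23, the Trav row nearest to Trac, had 3 counts in all, in S8. Trbv1, the row furthest from the β constant genes on the far side from Trbv31, had counts in all 8 samples, with a share of 1.33% to 2.78% in WT and of 6.36%, 0.954%, 0.599% and 0.325% in KO samples. Trbv30, the nearest on that side, had 109 counts in 4 samples, 2 of each genotype. No segment was at 0 in every sample of 1 group with 10 or more counts in every sample of the other. Trbv23 came nearest among the Trbv rows, with 31, 3, 29 and 13 counts in WT and 0 in every KO sample, and was chosen for mention after its counts were seen. It did not pass the filter on low counts for edgeR, whereas DESeq2 called it lower in KO, as it did 495 of 19671 genes.

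The other genes of the receptor were compared as lists of known members. The constant genes Trac, Trbc1 and Trbc2 were all tested and none was called or had an unadjusted p under 0.05, and Trac stood at 362 to 426 CPM in WT and 355 to 395 CPM in KO samples. Of 60 Traj rows, which encode the joining part of the α chain, 47 were tested and none was called by edgeR or DESeq2, with none at an unadjusted p under 0.05. Of 14 Trbj rows all were tested and none was called by either tool, with 1 at an unadjusted p under 0.05. The effective number of Traj segments was 41.7 to 44.7 in WT and 41.2, 40.3, 33.4 and 45.5 in S5 to S8, S7 being the lowest. Among the 4 CD3 chain genes none was called by either tool and 3 had an unadjusted p under 0.05, with a median log2 fold change of -0.30.

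Rag1, Rag2, Dntt and Ptcra, which act during V segment joining and β chain selection in the thymus, together reached at most 1.21 CPM in any sample, and none passed the filter. The 14 γδ receptor rows summed to 4.53 to 11.3 CPM in WT and 2.36 to 3.27 CPM in KO samples. Of these 14, 2 were tested and none was called by edgeR, 1 had an unadjusted p under 0.05 and DESeq2 called 1.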

How the data were processed

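RNA was rRNA-depleted, made into directional libraries and sequenced from both ends, and the authors' pipeline was STAR on GRCm38/mm10 with GENCODE M23, followed by featureCounts per gene. The deposited table holds these raw counts for 55335 genes and 8 samples, with 0 other sample columns; the strand setting and the treatment of reads with several matches are not given in the sources used here. Its columns carry sample numbers, which the key of the study's sample plot assigns to WT and KO. They carry no replicate numbers.

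Rows starting with Trav or Trbv were taken by symbol, and all 163 matched GENCODE M21 by gene ID, from which gene types, positions, exon lengths and transcripts came. Shares were taken within each locus. Effective numbers, leading shares, summed levels and dissimilarities were tested by exact two-sided permutation tests over 70 arrangements of 4 against 4 samples. With 3 against 4 samples the test has 35 arrangements and was not used. Levels were tested with edgeR 4.0.16 (R 4.3.3) on the whole table by the quasi-likelihood test with TMM factors, filterByExpr and Benjamini-Hochberg adjustment, and log2 CPM used a prior count of 2. DESeq2 1.42.0 was an alternative. Python 3.11.15 with scipy 1.17.1 gave shares, intervals (exact Clopper-Pearson, 95%) and permutation tests. Intervals and the limit that a count of 0 allows (3 counts) cover counting error only. Libraries of a group differed in all 12 pairs by far more than sampling noise, with a chi-square per gene of 18.6 to 66.8 where 1 would be sampling noise.

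Named segments were those in the top 3 of a locus in any sample, those with an adjusted p under 0.05, Trav11, Trav11d, Trav1 and Trbv31, the ends of each locus, and any absent in 1 group with 10 or more counts in every sample of the other. The members, the gene lists and the tests were chosen with earlier results of these data known.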

Additional observations from a re-analysis of the deposited data

Results flagged for a closer look

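Values that stood far from the other 3 of their group by Dixon's ratio were listed for the effective numbers, leading shares, summed levels and named segments. For unselected, normally distributed values, chance gives about 1 such value in 20 groups tested. Many segments were named because they ranked in the top 3 of a sample. That rate therefore does not hold for them, and the number found cannot be set against it. In all, 13 values were found in 69 groups. The effective number of Trav segments was 26.6 in S8, against 9.29 to 11.4 in the other 3 KO samples. Among Trav shares in WT samples, Trav1 was at 12.9% in S2 (0.272% to 0.518% in the others), Trav16d-dv11 at 18.7% in S4 (0.345% to 1.00%), Trav7n-4 at 21.1% in S1 (1.04% to 2.72%) and Trav7-5 at 3.92% in S2 (0.173% to 0.731%). Among Trav shares in KO samples, Trav1 was at 5.04% in S7 (0% to 0.467% in the others), Trav7n-4 at 6.01% in S8 (0% in each of the others), Trav6-4 at 19.2% in S7 (0% to 1.36%), Trav7-4 at 16.5% in S5 (0% to 0.142%) and Trav6-7-dv9 at 25% in S6 (0% to 2.09%). Among Trbv shares, Trbv12-2 was at 21.3% in S2 (11.5% to 12.4% in the other WT samples), and in S5 Trbv1 was at 6.36% (0.325% to 0.954% in the other KO samples) and Trbv12-1 at 17.5% (0.477% to 2.25%). The source of these values was not tested.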

How the results depend on the processing

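No paired analysis was possible because the columns carry no replicate numbers that could be matched to the labels. In the main analysis 1 of 52 segments was called, and 753 of all 15378 genes tested. At an adjusted p under 0.05 the number was 5 of 52 segments (1246 of 15378 genes). It was 2 of 52 with library sizes alone (753 of 15378) and 2 of 52 with offsets from the locus total (754 of 15378). DESeq2 called 3 of 66 segments (1107 of 19671 genes). Without a filter on low counts, 20 of 100 segments were called (1173 of 26530 genes). When a sample was left out, 0 to 3 segments and 546 to 749 genes were called. The cause of these changes was not tested. Trbv2 was called in each of the alternatives that kept all 8 samples. The effective number of Trbv segments had an exact permutation p of 0.0286, the smallest the design allows, without segments under 10 counts (difference -3.86) and without pseudogenes (difference -4.05). That p was 0.0571 in the main analysis, with the inverse Simpson index, with rows summed per subgroup and with counts divided by exon length. The difference was -1.77 when KO samples were averaged 2 by 2. With the same averaging, the difference in the leading Trav share was -0.167 percentage points in place of 5.77. That in the leading Trbv share was 1.90 in place of 7.46, and that in the effective number of Trav segments -4.38 in place of -10.0. The differences in dissimilarity were 0.0202 for Trav and 0.0679 for Trbv in place of 0.160 and 0.180. Averaging cannot raise mean leading shares or dissimilarities, or lower the mean entropy, in any set of samples, and only KO samples were averaged. With rows summed per subgroup, the difference in effective number for Trav was -2.37, on a scale of 23 subgroups in place of 128 rows (exact permutation p = 0.0857). When samples were left out in turn, the differences in effective number ranged from -14.0 to -8.28 for Trav and from -4.54 to -3.09 for Trbv, those in leading share from 3.93 to 9.68 and from 4.26 to 10.2 percentage points, and those in dissimilarity from 0.123 to 0.228 and from 0.148 to 0.215. The summed level of Trav changed sign without S6 and that of Trbv without S1 or S6, with ranges from -0.243 to 0.0598 for Trav and from -0.103 to 0.158 for Trbv on the log2 scale. Among the samples left out in turn, the leading share of Trav moved most without S8 (9.68) and that of Trbv without S6 (4.26). At equal locus counts, the difference in the expected number of Trbv segments seen was -0.456 (exact permutation p = 0.914). The other alternatives kept the direction of each of these results and their side of the threshold. With 4 samples a group and 1030 to 2781 Trav counts a sample, segments below a share of about 0.3% could not be seen in every sample.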
